A study of Bos grunniens x Bos taurus and Bos grunniens with 6 samples.

Results

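The genes of the semaphorin, SLIT-ROBO, ephrin and netrin guidance systems were compared between testis of cattle-yak and of yak. They were taken by their symbols: semaphorins of classes 3 to 7, plexins, neuropilins, SLIT ligands and ROBO receptors, A-type and B-type ephrins with their EPH receptors, netrins, UNC5 receptors, DCC and NEO1. The rule found 69 of the 18918 rows of the expression table, under 68 symbols, because PLXND1 stood on 2 rows. The rows split into 35 ligands and 34 receptors. NRP1 and PLXNB3, which belong to the same families, were on no row under those symbols and were not analysed here.

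Guidance systems are signals between cells, some by contact and some over a distance. Secreted or membrane-bound ligands bind receptors that act through small GTPases on actin, and so steer growing axons, migrating cells and sprouting vessels towards or away from a source. Semaphorins signal through plexins, with neuropilins as co-receptors of the secreted class 3 proteins. SLITs bind ROBO receptors, ephrins bind EPH receptor tyrosine kinases in both directions across a cell contact, and netrins bind DCC, neogenin (NEO1) and the UNC5 receptors. In testis, such proteins occur on Sertoli, Leydig, peritubular and endothelial cells as well as on germ cells.

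RNA-seq libraries were available from 3 male cattle-yak (TES5, TES6, TES7) and 3 male Gannan yak (Yak8, Yak9, Yak10), each 4 years old, with 1 library for each animal. The cattle-yak were the first-generation offspring of Jersey cattle sires and Gannan yak dams, and males of this cross are sterile. The groups came from different counties, and by the methods of the study the cattle-yak testes were removed by castration and the yak testes after euthanasia, so place, way of collection and genotype cannot be told apart. Reads of both groups were mapped to the yak genome although the hybrids carry cattle alleles too, which cannot be told apart from the genotype either.

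The deposited values are FPKM, that is, fragments scaled to gene length and library depth, so levels may be set side by side between genes. Each library held between 11175100 and 13136129 fragments on genes, and 1 fragment on a gene of 1 kb was worth between 0.0761 and 0.0895 FPKM. The label testis was borne out by Sertoli and Leydig markers in every library, but the summed FPKM of 6 round spermatid markers ran from 3.43 to 14.5 in cattle-yak against 691 to 789 in yak. All 16 tested Sertoli rows were higher in cattle-yak, with a summed FPKM between 2962 and 3135 against 569 to 667. In such bulk tissue, fewer cells of a type and less RNA in each cell cannot be told apart.

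On the deposited FPKM scale, guidance genes summed to more in cattle-yak testis, with a few members going sharply the other way. Their summed FPKM was 680.4, 769 and 625 in TES5, TES6 and TES7 and 238, 232 and 235 in Yak8, Yak9 and Yak10, so that the groups did not overlap. Of the 69 rows, 60 reached the mean of 0.5 FPKM over the 6 animals that the test required. A gene was called when limma on log2 (FPKM + 1) gave an adjusted p under 0.05 over the 15042 genes tested and a fold change beyond 2 on that scale, which understates the change of low genes. By this rule 32 members were higher in cattle-yak (53.3% of those tested, beside 33.4% of all tested genes) and 4 were lower (6.67% beside 20.8%). The 4 were DCC, ROBO3, EFNA5 and SEMA4G, and 24 members were not called. With no filter on low values the counts over all 69 rows were again 32 and 4. A row under the mean of 0.5 FPKM cannot exceed the fold threshold on that scale, so no filtered row could have been called. Among the tested members 8 passed the mean through one group alone: DCC, EFNB3, ROBO3 and SLIT1 through yak, and EPHA4, EPHA8, EPHB3 and SEMA5B through cattle-yak.

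In the single libraries, 46 tested members had each cattle-yak value above each yak value and 11 had each below, while 3 overlapped. Over all tested genes, 53.9% lay wholly above and 30.2% wholly below. The plot of levels by library shows this split, with ROBO3 and DCC at the lowest cattle-yak means of all members.

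**Figure D1:**
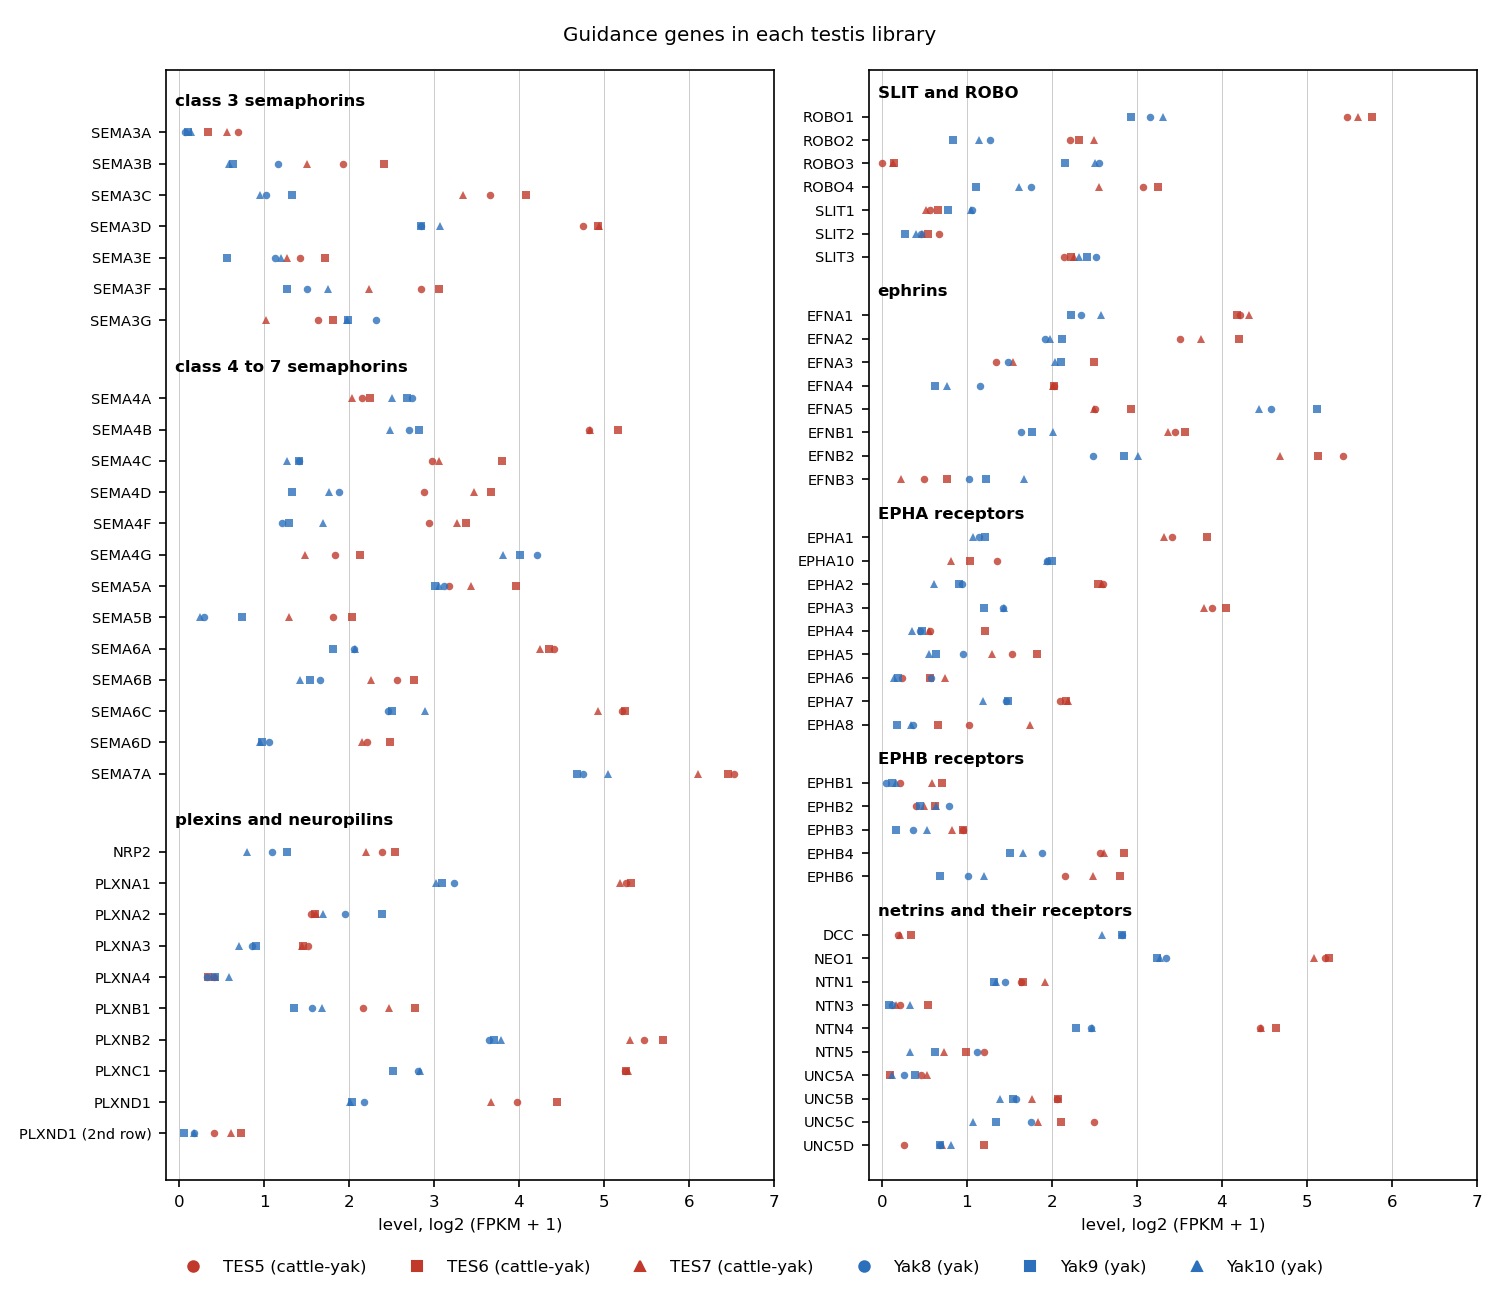
Level of each of the 69 guidance rows in every library, as log2 (FPKM + 1) on the x axis, grouped by role. Red symbols are the 3 cattle-yak and blue symbols the 3 yak. Red lies to the right of blue for 46 of the tested members and to the left for 11, on the scale of the deposited values only.

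FPKM is a share of each library, so the sign of a difference depends on what is held equal between libraries. As deposited, the median log2 fold change was 1.19 over the tested members and 0.51 over all tested genes. With median-of-ratios size factors, which bring the typical gene to the same level in all libraries, it was 0.80 over members and 0.01 over all genes. There, 23 of the 60 tested members were called higher, beside 2655 of the 15042 genes (17.7%), and 7 lower, beside 4173 (27.7%). When each library was instead centred on its own Sertoli markers, which differed by 2.25 on the log2 scale between the groups, the median turned to -1.07 over members and -1.74 over all genes. On that scale none of the 60 tested members was called higher, beside 28 of the 15042 genes (0.186%). Lower calls numbered 31 members, beside 11191 genes (74.4%). At an unadjusted p under 0.05 by limma, 1 member (PLXNC1) was higher. The median of the members exceeded that of all genes by 0.67 as deposited, 0.78 by median-of-ratios and 0.67 by Sertoli centring. The value by Sertoli centring equals the deposited one by construction, because centring shifts the log2 fold change of every gene by the same amount.

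The zero line thus moved between the scales. DCC, ROBO3, EFNA5 and SEMA4G were called lower on each of these 3 scales. Both added scales move cattle-yak down against yak, so the log2 fold changes of these genes could only fall further there. By Sertoli centring, 9 members kept a positive log2 fold change: SEMA3C (0.34), EPHA3 (0.30), PLXNC1 (0.29), SEMA6C (0.26), ROBO1 (0.23), EPHA1 (0.13), SEMA6A (0.10), EFNB2 (0.05) and SEMA4B (0.02). In what follows, "higher" and "lower" refer to the deposited FPKM scale, and the medians on the other scales stand beside each family. Counts of calls within a family are to be read beside 33.4% of all tested genes called higher and 20.8% called lower.

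**Figure D2:**
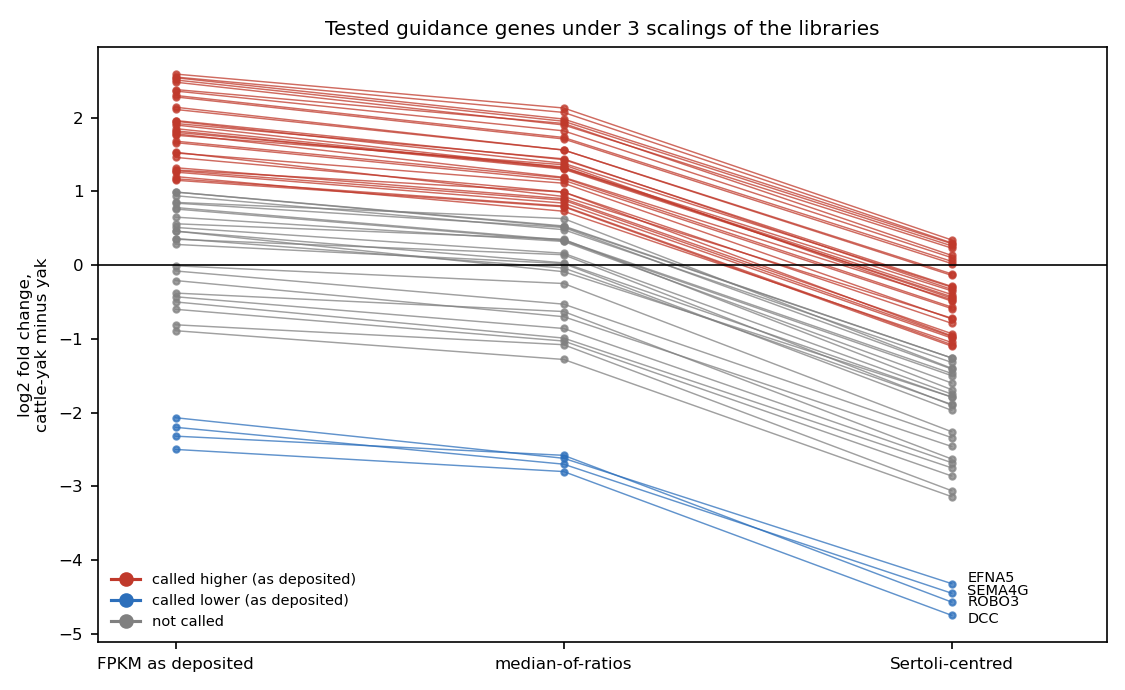
Log2 fold change (cattle-yak minus yak) of the 60 tested members, 1 line each, with FPKM as deposited, after median-of-ratios scaling and after centring on Sertoli markers. Red lines are the 32 members called higher as deposited, of which 9 stay above 0 under Sertoli centring, and blue lines are the 4 called lower, which stay lowest throughout.

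DCC, a receptor through which netrins attract axons and which can trigger cell death when no ligand is bound, was nearly absent from cattle-yak testis. Its level was 0.136, 0.266 and 0.160 FPKM in the cattle-yak libraries and 6.08, 6.07 and 5.0 FPKM in the yak libraries, from 13, 24 and 15 fragments against 644, 641 and 523 on a model of 8059 bases. The log2 fold change was -2.50 ± 0.15 (SE; limma, adjusted p = 1.8e-06), and the yak mean was 30.4 times the cattle-yak mean. NEO1, the close relative of DCC that also binds repulsive guidance molecules, went the opposite way. Its level was 36.1, 37.5 and 32.9 FPKM in cattle-yak and 9.17, 8.43 and 8.69 FPKM in yak, with a log2 fold change of 1.90 ± 0.11 (SE; limma, adjusted p = 1.3e-06). The ratio of DCC to NEO1 within a library, which no scaling between libraries can alter, was 0.00525 ± 0.00170 for cattle-yak against 0.653 ± 0.0730 for yak (SD, 3 animals each). With DCC below and NEO1 above its yak values in every cattle-yak library, this ratio could not overlap between the groups. Accordingly DCC made up 0.433% ± 0.141 of the summed FPKM of the 6 netrin receptors in cattle-yak and 30.3% ± 1.69 in yak.

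ROBO3 gave a similar picture among the SLIT receptors. ROBO3 is the divergent family member that lets commissural axons cross the midline and that binds SLITs only weakly in mammals. It was listed at 0, 0.101 and 0.0976 FPKM in cattle-yak and at 4.86, 3.47 and 4.71 FPKM in yak, from 0, 5 and 5 fragments against 282, 201 and 270. The yak mean was 65.6 times the cattle-yak mean, the largest such ratio among the members, with a log2 fold change of -2.32 ± 0.17 (SE; limma, adjusted p = 4.4e-06). The 3 other ROBO genes were all higher in cattle-yak. ROBO1, the main SLIT receptor, reached 43.6, 53.3 and 47.7 FPKM against 7.90, 6.64 and 8.94 FPKM, with a log2 fold change of 2.48 ± 0.14 (SE; limma, adjusted p = 1.1e-06). ROBO2 averaged 4.10 ± 0.512 against 1.14 ± 0.318 FPKM, and ROBO4, a receptor of endothelial cells, 6.94 ± 1.88 against 1.87 ± 0.631 FPKM (SD, n = 3 each). The ratio of ROBO3 to ROBO1 was 0.00132 ± 0.00114 in cattle-yak and 0.555 ± 0.0525 in yak, and ROBO3 held 28.7% ± 0.806 of the ROBO signal in yak but 0.108% ± 0.0940 in cattle-yak.

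The SLIT ligands did not share a direction among themselves. SLIT3, the most abundant of them, was at 3.42, 3.66 and 3.78 FPKM in cattle-yak and 4.72, 4.31 and 4.00 FPKM in yak. These values did not overlap, but the log2 fold change of -0.21 ± 0.14 (SE) did not pass the test (limma, adjusted p = 0.19), with a 95% interval from -0.52 to 0.11. SLIT1 was low in both groups, 0.497 ± 0.0782 against 0.958 ± 0.213 FPKM (adjusted p = 0.051 by limma). SLIT2 was under the filter at 0.482 ± 0.106 against 0.301 ± 0.0846 FPKM, with each cattle-yak value above each yak value. None of the SLIT genes tested was called by limma, 1 was lower at an unadjusted p under 0.05 (SLIT1), and none was called by voom on recovered fragments. SLIT3 to ROBO1 stood at 0.0755 ± 0.00588 in cattle-yak and 0.565 ± 0.105 in yak. This ratio could not overlap either, with SLIT3 below and ROBO1 above its yak values in every cattle-yak library. The median log2 fold change of the 6 tested SLIT and ROBO genes was 0.53 as deposited, 0.11 by median-of-ratios and -1.73 by Sertoli centring.

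Among the ephrins, 5 of 8 were higher in cattle-yak and EFNA5 was lower, with a median of 1.42 as deposited, 0.98 by median-of-ratios and -0.84 by Sertoli centring. EFNA5, a lipid-anchored ligand of EPHA receptors, measured 4.67, 6.64 and 4.64 FPKM in cattle-yak and 23.0, 33.7 and 20.6 FPKM in yak. The log2 fold change was -2.07 ± 0.21 (SE; limma, adjusted p = 2.8e-05). EFNA1 and EFNA2, 2 other lipid-anchored ephrins, moved in the other direction, from 4.24 ± 0.647 in yak to 17.9 ± 0.977 FPKM in cattle-yak and from 3.01 ± 0.287 to 13.5 ± 3.59 FPKM. EFNA4 rose likewise, from 0.822 ± 0.361 to 3.06 ± 0.0145 FPKM. The summed A-type ephrins overlapped between groups, 37.2 to 48.9 FPKM in cattle-yak against 32.3 to 44.5 FPKM in yak, but their composition did not. EFNA5 gave 69.8% ± 5.91 of that sum in yak and 12.5% ± 1.15 in cattle-yak, where EFNA1 led in TES5 and TES7 and EFNA2 in TES6. EFNA3 overlapped between the groups, 2.69 ± 1.68 against 2.74 ± 0.814 FPKM, with a 95% interval of the log2 fold change from -0.81 to 0.64.

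The B-type ephrins, transmembrane ligands that also signal into their own cell, were led by EFNB2, which marks arteries. EFNB2 reached 41.9, 34.1 and 24.8 FPKM in cattle-yak and 4.6, 6.21 and 7.07 FPKM in yak, with a log2 fold change of 2.30 ± 0.21 (SE; limma, adjusted p = 1.8e-05). EFNB1, an X-linked B-type ephrin, ranged from 9.31 to 10.9 FPKM in cattle-yak and from 2.12 to 3.04 FPKM in yak (log2 fold change 1.66). EFNB3 lay below in cattle-yak, 0.427 ± 0.266 against 1.52 ± 0.591 FPKM, and its log2 fold change of -0.81 was within the fold threshold (adjusted p = 0.009 by limma). It rested on 2 to 8 fragments in cattle-yak and 14 to 29 in yak.

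The EPHA receptors were led by different genes in the 2 groups. EPHA3, which binds EFNA5 with high affinity, was at 13.8, 15.5 and 12.8 FPKM in cattle-yak and 1.68, 1.30 and 1.71 FPKM in yak, with a log2 fold change of 2.55 ± 0.14 (SE; limma, adjusted p = 1.3e-06). EPHA10, whose kinase domain is inactive, was at 1.55, 1.05 and 0.760 FPKM against 2.83, 2.99 and 2.84 FPKM, a log2 fold change of -0.89 ± 0.17 (adjusted p = 0.0015 by limma) that fell short of the threshold. EPHA3 was the top EPHA gene in each cattle-yak library and EPHA10 in each yak library, and the ratio of EPHA10 to EPHA3 was 0.0798 ± 0.0284 against 1.89 ± 0.363. EPHA1 (10.6 ± 2.25 against 1.21 ± 0.103 FPKM) and EPHA2 (4.98 ± 0.135 against 0.774 ± 0.217 FPKM) were also higher in cattle-yak. EPHA4, EPHA5, EPHA7 and EPHA8 were not called, with log2 fold changes between 0.35 and 0.85. Over the 8 tested EPHA genes the median was 0.84 as deposited, 0.57 by median-of-ratios and -1.41 by Sertoli centring.

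Of the EPHB receptors, EPHB6, another receptor without kinase activity, was the only one called. It was at 3.47, 5.99 and 4.6 FPKM in cattle-yak and 1.01, 0.604 and 1.30 FPKM in yak, with a log2 fold change of 1.52 ± 0.22 (SE; limma, adjusted p = 0.00023). EPHB4, the venous receptor of EFNB2 and the most abundant EPHB gene, averaged 5.42 ± 0.696 against 2.24 ± 0.427 FPKM. Its log2 fold change of 0.99 ± 0.16 (adjusted p = 0.00054 by limma) lay just inside the fold threshold, and it was called when TES5, TES7 or Yak8 was left out. The median of the 3 tested EPHB genes was 0.99 as deposited, 0.52 by median-of-ratios and -1.26 by Sertoli centring.

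**Figure D3:**
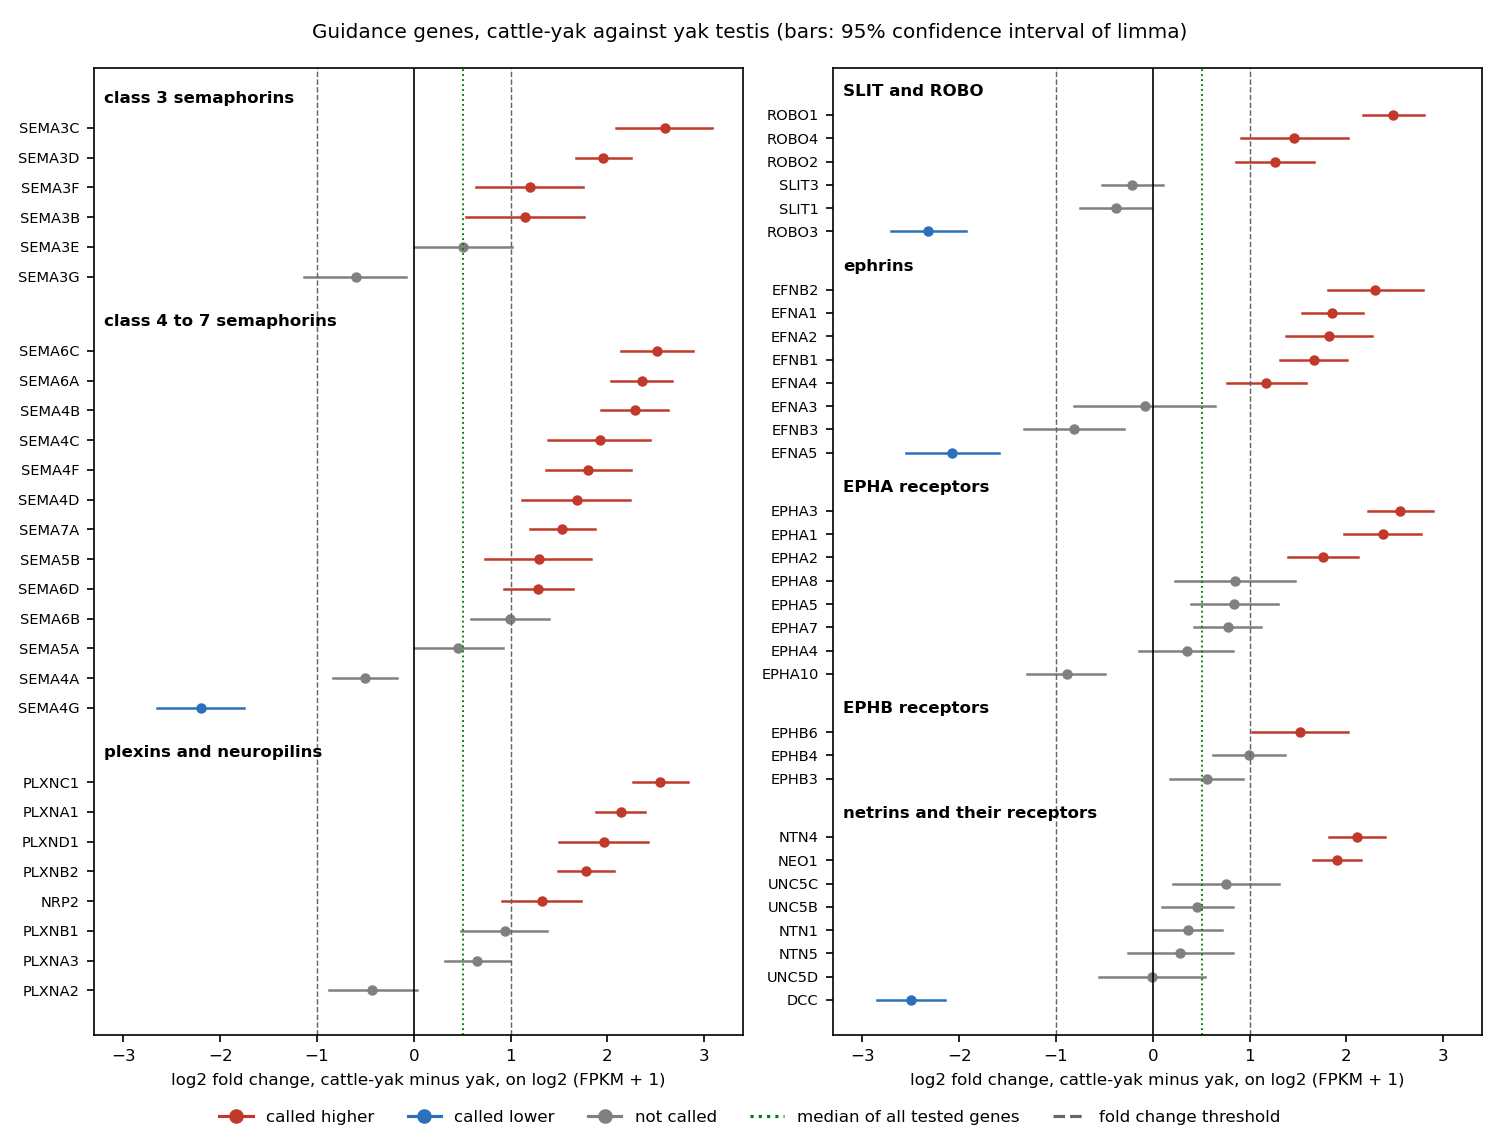
Log2 fold change of the 60 tested members on log2 (FPKM + 1), as points with 95% confidence intervals, ordered within role. Red is called higher (32), blue called lower (4) and grey not called (24), while the dotted line is the median of all tested genes (0.51). By Sertoli centring the zero line would shift so that 9 of these points stay above 0.

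The semaphorins were the largest group, with 13 of 19 tested genes higher in cattle-yak and 1 lower. Shares over all tested genes were 33.4% higher and 20.8% lower. In class 3, the secreted semaphorins, 4 of 6 tested were higher (median 1.17 as deposited, 0.76 by median-of-ratios, -1.08 by Sertoli centring). SEMA3C, which guides neural crest cells, had the largest rise of all members. It was at 11.6, 15.9 and 9.12 FPKM in cattle-yak and 1.04, 1.51 and 0.931 FPKM in yak, with a log2 fold change of 2.59 ± 0.21 (SE; limma, adjusted p = 9.5e-06). SEMA3D was the most abundant of the class in each library, 28.4 ± 2.0 against 6.6 ± 0.705 FPKM (log2 fold change 1.95). SEMA3B and SEMA3F were called on smaller changes, and SEMA3B, at a log2 fold change of 1.15, lost its call without TES6, at 0.92. SEMA3G, a ligand that acts on endothelial cells through NRP2, lay the other way at 1.88 ± 0.758 against 3.29 ± 0.603 FPKM, a log2 fold change of -0.60 within the threshold (adjusted p = 0.037 by limma).

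In the membrane-bound classes 4 to 7, 9 of 13 genes were higher and SEMA4G was lower (median 1.53 as deposited, 0.99 by median-of-ratios, -0.72 by Sertoli centring). SEMA7A, the lipid-anchored semaphorin, was the most abundant guidance gene in every library but Yak9, where EFNA5 exceeded it. It stood at 91.2, 87.2 and 68.2 FPKM in cattle-yak and 26.1, 24.8 and 32.1 FPKM in yak, with a log2 fold change of 1.53 ± 0.15 (SE; limma, adjusted p = 2.1e-05). SEMA6C, a transmembrane semaphorin, showed the largest rise of these classes, 34.2 ± 4.11 against 5.21 ± 1.09 FPKM (log2 fold change 2.51). SEMA6A followed at 2.36, while SEMA6B, at 0.99, lay just inside the threshold and SEMA6D was called at 1.28. SEMA4C, SEMA4D and SEMA4F were higher by 1.92, 1.68 and 1.80 on the log2 scale. SEMA4D is a ligand of PLXNB1, which was at 4.62 ± 1.18 against 1.91 ± 0.326 FPKM and was not called at a log2 fold change of 0.94. Of the class 5 genes, SEMA5B was called higher at 2.35 ± 0.836 against 0.361 ± 0.269 FPKM. It passed the filter through cattle-yak alone, and its log2 fold change of 1.29 became 0.99 by median-of-ratios, where it was not called, and -0.96 by Sertoli centring. The more abundant SEMA5A, at 10.8 ± 3.4 against 7.38 ± 0.318 FPKM, was not called, and its log2 fold change of 0.46 turned to -0.09 by median-of-ratios and -1.79 by Sertoli centring.

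SEMA4G was the one semaphorin called lower. It was at 2.58, 3.37 and 1.80 FPKM in cattle-yak and 17.6, 15.2 and 13.1 FPKM in yak, with a log2 fold change of -2.20 ± 0.20 (SE; limma, adjusted p = 1.4e-05). Its relative SEMA4B went from 5.38 ± 0.75 in yak to 29.9 ± 4.26 FPKM in cattle-yak. Class 4 thus had a different top member in the 2 groups: SEMA4G with 48.6% ± 2.48 of the class in yak, and SEMA4B with 48.1% ± 2.81 in cattle-yak. SEMA4A was also below its yak level, 3.43 ± 0.322 against 5.25 ± 0.527 FPKM, with a log2 fold change of -0.50 within the threshold (adjusted p = 0.011 by limma). The ratio of SEMA4G to SEMA4A was 0.744 ± 0.159 against 2.91 ± 0.166, so the 2 genes did not keep their proportion within the libraries.

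The plexins, which carry the semaphorin signal, were called higher in 4 of 7 tested rows and lower in none by limma, by voom or at an unadjusted p under 0.05 (median 1.78 as deposited, 1.19 by median-of-ratios, -0.47 by Sertoli centring). PLXNC1, the receptor of SEMA7A, was at 37.0, 37.5 and 38.1 FPKM in cattle-yak and 6.05, 4.74 and 6.16 FPKM in yak (log2 fold change 2.54 ± 0.12 SE; limma, adjusted p = 6.7e-07). As SEMA7A rose less, the ratio of SEMA7A to PLXNC1 was 2.19 ± 0.356 in cattle-yak and 4.92 ± 0.527 in yak. PLXNB2, a receptor of class 4 semaphorins, was the most abundant plexin in every library, with 44.4 ± 6.04 against 12.1 ± 0.646 FPKM (log2 fold change 1.78). PLXNA1 stood at 37.2 ± 1.85 against 7.71 ± 0.639 FPKM, whereas its relative PLXNA2 stood at 2.01 ± 0.0696 against 3.12 ± 1.04 FPKM and was not called (adjusted p = 0.075 by limma). PLXNA3, at 1.79 ± 0.0745 against 0.774 ± 0.122 FPKM, was within the fold threshold too. The ratio of PLXNA2 to PLXNA1 was 0.0540 ± 0.00353 against 0.406 ± 0.138. The co-receptor NRP2 was higher at 4.22 ± 0.624 against 1.10 ± 0.335 FPKM.

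PLXND1, the receptor of SEMA3E, stood on 2 rows of the table, and how fragments were shared between them is uncertain. The row ENSBGRG00000024437 was at 15.8 ± 4.57 against 3.23 ± 0.262 FPKM and was called higher with a log2 fold change of 1.96. The row ENSBGRG00000024462 was under the filter, at 0.505 ± 0.162 against 0.1 ± 0.0496 FPKM, from 1 to 13 fragments in a library. SEMA3E itself was not called, at 1.80 ± 0.440 against 0.99 ± 0.446 FPKM.

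The netrins differed among themselves. NTN4, a netrin of basement membranes that binds laminin, was at 20.8, 24.0 and 21.0 FPKM in cattle-yak and 4.52, 3.88 and 4.57 FPKM in yak, with a log2 fold change of 2.11 ± 0.13 (SE; limma, adjusted p = 1.7e-06). NTN1, the classical ligand of DCC, was at 2.34 ± 0.377 against 1.59 ± 0.131 FPKM and did not pass the test, with a log2 fold change of 0.36 as deposited that turned to -0.04 by median-of-ratios and -1.89 by Sertoli centring. NTN5 was low and overlapped between groups. UNC5B, UNC5C and UNC5D, repulsive netrin receptors, were not called by limma, 2 of them were higher at an unadjusted p under 0.05, and 1 (UNC5C) was called by voom. The ratio of NTN4 to NEO1 was 0.619 ± 0.0358 against 0.493 ± 0.0330, a much smaller shift than that of DCC to NEO1. For the 8 tested netrin genes and receptors the median was 0.41 as deposited, 0.03 by median-of-ratios and -1.84 by Sertoli centring.

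Within 13 families of these ligands and receptors, the top member by FPKM was the same in all libraries for 10. It switched between the groups for the A-type ephrins, the EPHA receptors and the class 4 semaphorins. DCC and ROBO3 never led their families, but both made up a large share of them in each yak library, between 28.9% and 32.2% for DCC and between 27.8% and 29.4% for ROBO3. In the SLIT family, SLIT3 held 78.7% ± 3.10 in cattle-yak and 77.6% ± 4.26 in yak, while the smaller shares of SLIT1 (10.8% ± 1.54 against 17.1% ± 3.16) and SLIT2 (10.5% ± 2.5 against 5.33% ± 1.17) did not overlap between the groups.

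**Figure D4:**
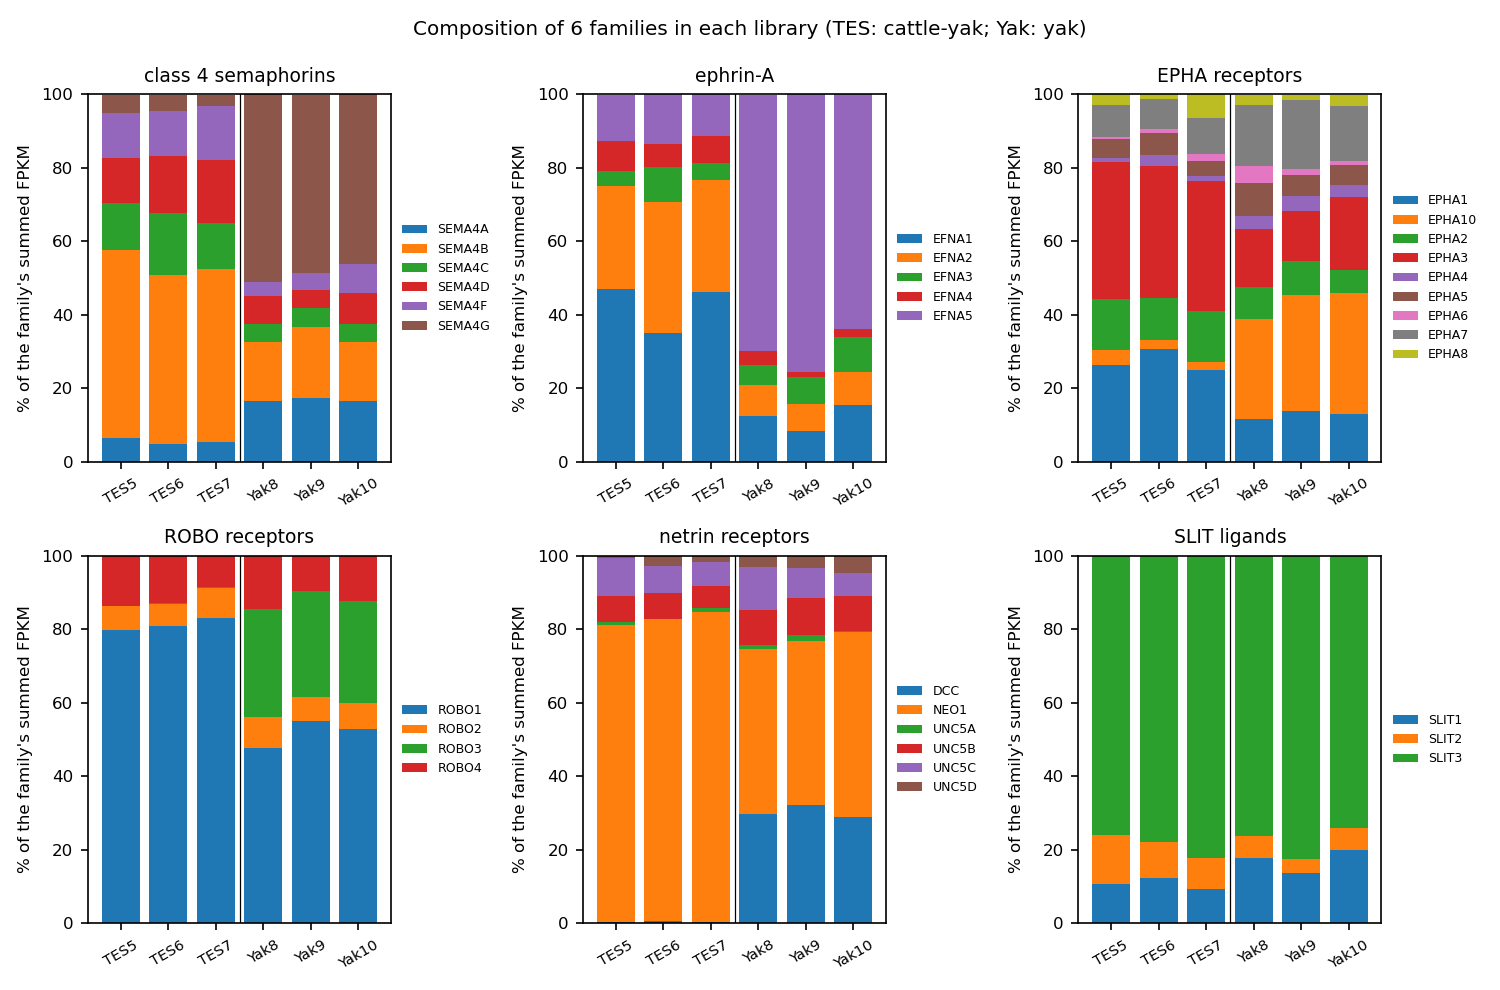
Share of each member in the summed FPKM of its family, in percent, for 6 families and each of the 6 libraries. SEMA4G, EFNA5, EPHA10, ROBO3 and DCC take between 27.1% and 75.6% of their families in yak and 13.6% or less in cattle-yak, while SLIT3 stays between 74.2% and 82.4% in all 6. Shares within a library do not depend on the scaling between libraries.

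Of the 9 rows under the filter, EPHA6, EPHB2, NTN3, PLXNA4 and UNC5A overlapped between the groups. SEMA3A, a repulsive class 3 ligand, was at 0.454 ± 0.176 against 0.0758 ± 0.0257 FPKM, from 9 to 22 fragments in cattle-yak and 2 to 4 in yak. EPHB1 was at 0.429 ± 0.243 against 0.0835 ± 0.0454 FPKM.

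Voom on whole fragments recovered from the FPKM steps called more members than the log-scale test. It gave 41 of 60 tested members higher, beside 5970 of 15042 genes (39.7%), and 6 lower, beside 3418 (22.7%). The added lower calls were EFNB3 and EPHA10, and the added higher calls were EPHA5, EPHA7, EPHA8, EPHB3, EPHB4, PLXNA3, PLXNB1, SEMA6B and UNC5C. ROBO3 and DCC had log2 fold changes of -6.49 and -4.95 in that fit.

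Outside these families, 54 rows of a list of co-receptors, other ligands and receptors, cytoplasmic effectors and regulators were tested. For this list, called effectors below, 59 of the 61 listed symbols had a row. Of the tested rows, 28 were higher (51.9%, beside 33.4% of all tested genes) and 6 lower (11.1%, beside 20.8%). The median was 1.02 as deposited, beside 0.51 over all tested genes, and it was 0.51 by median-of-ratios and -1.23 by Sertoli centring. The largest rises were those of SRGAP1, the GTPase-activating protein bound by ROBO1 (24.8 ± 3.42 against 3.38 ± 0.360 FPKM), and FYN, a kinase of EPH and netrin signalling (44.9 ± 7.74 against 7.01 ± 1.12 FPKM). GPC1, a heparan sulphate carrier that binds SLITs, and RGMA, a NEO1 ligand, also rose, with log2 fold changes of 2.48 and 2.27. Among the lower genes were CHN2, DPYSL5, DSCAM, KALRN and SH2D3C. DPYSL5, a collapsin response mediator of the semaphorin pathway, fell furthest, from 65.8 ± 6.93 in yak to 0.655 ± 0.471 FPKM (log2 fold change -5.37 ± 0.20 SE; limma, adjusted p = 2.4e-07). DSCAM, a netrin receptor like DCC, went from 1.37 ± 0.223 to 0.0581 ± 0.0696 FPKM. It passed the filter through the yak libraries alone, and CNTN2 and VAV3 of the same list passed it through cattle-yak alone.

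Markers of several cell types moved with these results. Each of the 8 Leydig rows was higher in cattle-yak (summed FPKM 10468 to 12471 against 3352 to 4889), as was each of the 7 peritubular myoid rows (597 to 794 against 121 to 149.7). Of the rows for spermatogonia, 7 of 8 were higher (347 to 409.7 against 83.1 to 101), while the 6 round and 5 elongating spermatid rows were all lower, the latter with a summed FPKM of 13.3 to 68.8 against 8133 to 9917. Spermatocyte rows were mixed, 1 of 5 higher and 2 lower, with a summed FPKM of 149.5 to 236 against 316 to 343. The part of these cell types in the higher and lower guidance genes was not tested. Endothelial markers, relevant to EFNB2, EPHB4, ROBO4, PLXND1 and SEMA3G, were 4 higher and 1 lower of 7, with a summed FPKM of 45.7 to 67.1 against 33.8 to 40.8 and with VWF lower (3.70 ± 1.11 against 15.6 ± 0.478 FPKM). Of the macrophage rows, 3 of 6 were higher and 2 (AIF1 and CD14) lower, with a summed FPKM of 71.9 to 94.7 against 97.6 to 116. Most of the yak sum was AIF1 (3.55 ± 0.748 in cattle-yak against 61.3 ± 7.2 FPKM in yak), so the sum does not speak for the set. For nerve and Schwann cells, 5 of 7 rows were tested, with S100B and NGFR higher and SOX10 lower (summed FPKM 375 to 562 against 110.4 to 133).

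TES6 had the highest cattle-yak value for 42 of the 60 tested members, or 70%, beside 37.8% of all tested genes. Without TES6, 32 members were higher and 4 lower, with a median of 1.12.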

How the data were processed

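Testis RNA-seq of 3 cattle-yak and 3 yak was analysed. As stated in the study's methods, the authors used Trimmomatic for trimming, HISAT2 for mapping of both groups (yak genome LU_Bosgru_v3.0), Cufflinks for FPKM, HTSeq for read counts and DESeq for their test. The deposited table holds FPKM per gene and library with GO and KEGG terms. The values are whole fragments over length and depth, so whether Cufflinks made them was not settled. Fragments were recovered for 17973 of 17973 genes with at least 2 values above 0, within 0.005 fragments. That tolerance was the rule for accepting a count, so this share does not measure whether the counts are right. FPKM were tested in limma 3.58.1 (R 4.3.3) on log2 (FPKM + 1) with a variance trend, two-sided, Benjamini-Hochberg adjusted over 15042 genes with a mean of at least 0.5 FPKM. Levels are mean ± SD over 3 animals, on the FPKM scale. The p-values of limma compare the group difference on the log2 scale with the variance between animals, moderated by that trend.

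For each role, the most abundant row, the largest called rise and fall, all rows called lower and rows sharing a symbol were named by rule, and other members were named after their values were seen. The members and lists were chosen with earlier results of these data known. The alternatives were another pseudocount, other filters, 2 scalings, voom, no variance trend, no fold threshold and leaving out each animal. The tests were also run on simulated data, but the outcome is not given here and no call in this text rests on it.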

Additional observations from a re-analysis of the deposited data

How the results depend on the processing

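The number of guidance genes called higher lay between 32 and 34, the number called lower between 4 and 5 and their median log2 fold change between 1.07 and 1.27 when each animal was left out. Without a variance trend no call of a member changed, and 7 of the tested members had no value with the filter at a mean of 1 FPKM. Scaling mattered most. With median-of-ratios size factors the members called lower became 7, their median 0.80, the effectors called higher 13 and all genes called higher 2655. EFNA4, NRP2, ROBO2, ROBO4, SEMA3B, SEMA3F, SEMA5B, SEMA6D and SEMA7A lost their calls, and EFNB3, EPHA10 and SEMA3G were called lower. With Sertoli centring 0 members and 0 effectors were called higher by limma (1 and 0 at an unadjusted p under 0.05), 31 members and 34 effectors lower, 28 of all genes higher and 11191 lower, and the members' median was -1.07. The median of members was 1.82 with a pseudocount of 0.1, 1.87 by voom and 0.94 with no filter. With no fold threshold, 42 of the 60 tested members were higher and 8 lower, beside 7916 and 4399 of the 15042 genes tested.

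The sign turned by median-of-ratios for NTN1 (-0.04) and SEMA5A (-0.09), both within the threshold. By Sertoli centring the log2 fold change turned to between -0.12 and -0.49 for EFNA1 (-0.40), EFNA2 (-0.43), EPHA2 (-0.49), NEO1 (-0.35), NTN4 (-0.14), PLXNA1 (-0.12), PLXNB2 (-0.47), PLXND1 (-0.29), SEMA3D (-0.30), SEMA4C (-0.33) and SEMA4F (-0.45). It turned to -0.57 to -0.99 for EFNB1 (-0.59), EPHB6 (-0.73), NRP2 (-0.93), ROBO2 (-0.99), ROBO4 (-0.79), SEMA4D (-0.57), SEMA5B (-0.96), SEMA6D (-0.97) and SEMA7A (-0.72). It turned to -1.05 or below for EFNA4 (-1.08), EPHA4 (-1.90), EPHA5 (-1.41), EPHA7 (-1.47), EPHA8 (-1.40), EPHB3 (-1.69), EPHB4 (-1.26), NTN1 (-1.89), NTN5 (-1.97), PLXNA3 (-1.60), PLXNB1 (-1.32), SEMA3B (-1.10), SEMA3E (-1.75), SEMA3F (-1.05), SEMA5A (-1.79), SEMA6B (-1.26), UNC5B (-1.79) and UNC5C (-1.50). The construction of that scale, which subtracts the Sertoli difference of 2.25, is the cause. EFNA3 and UNC5D, near 0 as reported, changed sign with single animals left out, from -0.43 to 0.14 for EFNA3 and from -0.25 to 0.22 for UNC5D.

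Single calls changed for 8 members when an animal was left out, and SEMA3B alone among them lost one. No paired analysis was possible because the groups are different animals and the labels give no number that ties a cattle-yak to a yak. With 3 animals a group, changes near the fold threshold cannot be placed on either side of it.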

Other observations

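The table's own annotation put 64 of the 69 guidance rows in the KEGG pathway Axon guidance, which held 170 rows. Of the 97 tested rows of that pathway outside the guidance families, 44 were higher in cattle-yak (45.4%) and 9 lower (9.28%). The GO term semaphorin-plexin signaling pathway was on 23 members and on 30 rows, and of the 7 tested rows that were no members 5 were higher. Angiogenesis was listed for 11 members, and of 127 other tested rows with that term 60 were higher (47.2%) and 10 lower (7.87%). Broader terms gave other shares among tested rows that were no members: 35.8% higher and 19.7% lower for plasma membrane, which was on 38 members, 34.6% and 22.2% for integral component of membrane and 37.4% and 15.4% for cell migration. Over all tested genes the shares were 33.4% and 20.8%, and these are descriptions on the deposited FPKM scale, from annotation terms whose lists overlap.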
